A study of Mus musculus with 20 samples.

Results

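The brush border of the proximal tubule, the dense layer of microvilli that faces the filtrate, carries membrane-bound peptidases. Of 6 such genes (Anpep, Mep1a, Mep1b, Dpp4, Enpep and Ggt1), 5 are measured here, out of 8251 mouse genes that have a probe set of their own on the array. The members were taken as every probe set that the platform annotation pairs with 1 of these genes and no other. This gave 7 probe sets: 1 each for Anpep, Mep1a and Dpp4, and a pair each for Mep1b and Enpep, whose brighter probe set is called the main one below. Ggt1, gamma-glutamyltransferase, has no probe set under this rule and was not analysed here.

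The proximal tubule reclaims filtered peptides by cutting them at its surface and taking up the free amino acids and short peptides. Aminopeptidases remove residues from the amino end, meprins cut within the chain, and dipeptidyl peptidases release pairs of residues. The same microvilli hold the sodium-phosphate cotransporters that are withdrawn or inserted when phosphate supply changes. These enzymes are commonly used as markers of brush border membrane in studies of phosphate handling.

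Kidney RNA of C57BL/6J mice was hybridised to 20 short-oligonucleotide arrays, 5 per group, and each array received RNA pooled from 3 mice. Normal and Hyp mice each received either the control or the low phosphate diet, which gives 4 groups. Hyp mice are the mouse model of X-linked hypophosphatemia: they carry a mutation of Phex, a membrane endopeptidase gene best known from bone, and lose phosphate in the urine. Each group held 3 arrays of male and 2 arrays of female kidney, and each group had 2 arrays after 3 days on the diet and 3 arrays after 5 days; age was not given in the sources used here. Arrays are named below by the number in their title, and arrays 5 to 8 were the 4 female arrays at 5 days, 1 per group. The labels do not say whether male and female or 3-day and 5-day animals were processed together, so sex, days and array set cannot be fully told apart. Each p-value reflects how much pools of 3 mice differ, and single animals were not measured. Every run of consecutive title numbers held 1 sex and 1 duration. The p-values for sex and for days therefore do not cover a difference between such array sets.

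Values are the deposited array intensities, which the authors had scaled to a trimmed mean of between 500.254 and 500.309 on every array. Arrays 5 to 8 stood apart from the other 16 in correlation. Their median Spearman correlation with the other arrays was 0.895 to 0.934 against 0.943 to 0.969. Their actin 3'/5' probe ratio was 1.739 to 2.607 against 1.218 to 1.983 elsewhere, so these ranges overlapped, array 5 having 1.739. Proximal tubule markers were measurable: 14 of 20 had a probe set, all 14 lay above the intensity filter and none was at 0. This does not single out kidney, since the filter is only the 30th percentile and endothelial markers, 8 of 8, passed it too. The Phex probe set was below the filter, with intensities of 11.5 to 106.3 over all 20 arrays and overlapping ranges in all 4 groups, and it could not check the genotype labels.

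All 7 peptidase probe sets were above the intensity filter of 79.4. The main Enpep probe set was brighter than 95.5% of all probe sets on the array, the main Mep1b probe set than 91.6%, Mep1a than 87.9%, Anpep than 86.6% and Dpp4 than 60.4%. The second Enpep probe set was brighter than 77.3% and the second Mep1b probe set than 36.3%. Brightness depends on the probe sequences as well as on the RNA, so these ranks do not order the genes by abundance. The brighter probe set stands for the gene in every count of genes below.

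The diet and genotype comparisons ask whether phosphate supply or the Hyp mutation moves these enzymes. No peptidase gene passed the test in either. Anpep, with the smallest p of the 5 genes for diet in normal mice, read lower on low phosphate diet (1059 against 1402). Dpp4, with the smallest p for diet in Hyp mice, read higher on it (387.2 against 299.2). Differences are on the log2(intensity + 38) scale. They were tested with limma in a model with terms for the 4 combinations of sex and days. Benjamini-Hochberg adjustment ran over all 8695 probe sets tested, and a gene was called at an adjusted p under 0.05.

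Of the 5 genes, 0 were called for diet in normal mice, where 0.184% of all probe sets were called, or for diet in Hyp mice, where 0.15% were. Likewise 0 were called for genotype on control diet (background 0.253%) or on low phosphate diet (0.357%). With calls this rare over the whole array, 0 of 5 genes is near the background. At an unadjusted p under 0.05 in limma, Anpep and Mep1b counted for diet in normal mice, as did 8.56% of all probe sets, and Dpp4 counted for diet in Hyp mice, as did 4.59%. Anpep counted for genotype on control diet (background 8.55%) and Enpep for genotype on low phosphate diet (9.47%). Comparisons with a group in common, such as diet in normal mice and genotype on control diet, share the 5 arrays of that group.

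**Figure D1:**
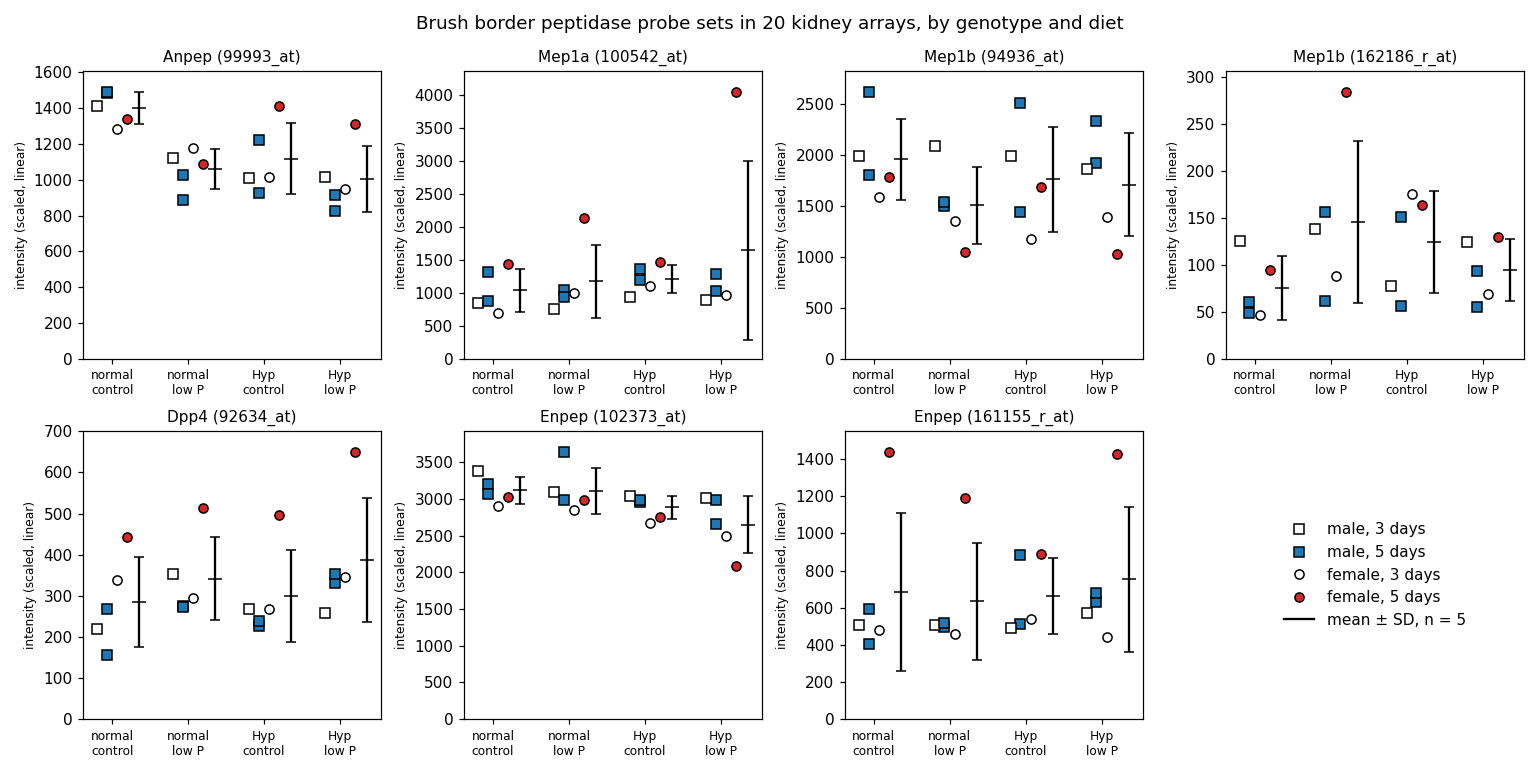
Array intensity (y axis, linear, from 0) of the 7 peptidase probe sets in the 4 groups (x axis); each point is 1 array of 3 pooled mice, marked by sex and days, and the bar beside each group is the mean ± SD of 5 arrays. Anpep in normal mice lies lower on low phosphate diet (885.9 to 1177.4) than on control diet (1281.2 to 1489.8), while the ranges of the other genes overlap.

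Aminopeptidase N, encoded by Anpep and also known as CD13, removes neutral amino acids from the amino end of peptides. Per-array values are given by title number, so in normal mice they run male 5 days, female 5 days, male 3 days, female 3 days and male 5 days, and in Hyp mice male 5 days, female 5 days, male 5 days, male 3 days and female 3 days. In normal mice on control diet the Anpep intensities were 1483.6, 1341.1, 1412.6, 1281.2 and 1489.8 (1402 ± 90.53, SD, n = 5). In normal mice on low phosphate diet they were 1024.6, 1086.2, 1122.5, 1177.4 and 885.9 (1059 ± 111.7, SD, n = 5). Every array on low phosphate lay below every array on control diet. Such separation, in this direction, was seen for 65 of 8695 probe sets (0.748%). No other peptidase probe set separated the groups in this comparison (0.805% did upward), in diet in Hyp mice (0.219% upward, 0.207% downward), or by genotype on control (0.518% and 0.253%) or low phosphate diet (0.518% and 0.311%). The fitted difference was -0.40 ± 0.12 (SE; 95% interval -0.65 to -0.14), with an unadjusted p of 0.0045 and a Benjamini-Hochberg adjusted p of 0.293 in limma, so Anpep was not called. Within the 5 sets of arrays with consecutive title numbers, each holding 1 array of either diet, the differences ran from -0.73 to -0.12. The low phosphate array was lower in 5 of 5, which follows from the separation of the groups and adds nothing to it.

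In Hyp mice the Anpep values were spread more widely. Those on control diet had 924.3, 1411.1, 1225, 1007.2 and 1018.2 (1117 ± 198.2, SD, n = 5), and those on low phosphate diet 828.2, 1309.1, 915.3, 1018.2 and 949.8 (1004 ± 183.7, SD, n = 5). The high value in both Hyp groups was the female 5-day array (7 and 8), and the groups overlapped. The diet difference in Hyp mice was -0.15 (95% interval -0.40 to 0.11; limma adjusted p = 0.998), lower in 4 of 5 array sets. The difference between the diet effects in the genotypes was 0.25 (95% interval -0.11 to 0.61; adjusted p = 1), so a diet effect of different size in normal and Hyp mice was not shown. On control diet Anpep read lower in Hyp than in normal mice by -0.33 (95% interval -0.59 to -0.08; adjusted p = 0.495), with lower values in 3 of 4 array sets; on low phosphate diet the difference was -0.085 (95% interval -0.34 to 0.17; adjusted p = 0.855).

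Aminopeptidase A, encoded by Enpep, removes acidic residues and is known for converting angiotensin II to angiotensin III. Its main probe set was the steadiest of the 7, with a highest value only 1.74 times the lowest over 20 arrays. In normal mice on control diet the intensities were 3204.2, 3020.5, 3376.4, 2908.6 and 3068.8 (3116 ± 180.2, SD, n = 5), and on low phosphate diet 3633.5, 2980, 3091.8, 2846.9 and 2982 (3107 ± 306.9, SD, n = 5). The means were nearly equal, with a diet difference of -0.01 (95% interval -0.20 to 0.18). Hyp mice on control diet had 2956.1, 2757.3, 2990.4, 3035.7 and 2677.2 (2883 ± 156.8, SD, n = 5), and Hyp mice on low phosphate diet 2657.8, 2085.1, 2988.3, 3015.3 and 2493.1 (2648 ± 384.6, SD, n = 5). Hyp values were lower than normal values in 4 of 4 array sets on either diet, but the groups overlapped and the test was missed: the difference was -0.11 (95% interval -0.30 to 0.08; limma adjusted p = 0.748) on control diet and -0.24 (95% interval -0.43 to -0.04; adjusted p = 0.442) on low phosphate diet. The second Enpep probe set gave 683.8 ± 426 and 633.6 ± 312.9 in normal mice on control and low phosphate diet, and 662.4 ± 204.7 and 751.8 ± 389 in Hyp mice (SD, n = 5 each). Its genotype differences had the other sign, at 0.06 (95% interval -0.29 to 0.41) on control and 0.22 (95% interval -0.13 to 0.57) on low phosphate diet.

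Meprins are secreted or membrane-bound metalloproteases built from alpha (Mep1a) and beta (Mep1b) subunits, the beta subunit anchoring the complex in the membrane. Mep1a intensities in normal mice were 1315.1, 1440.3, 851.6, 697.1 and 879.5 on control diet (1037 ± 322, SD, n = 5) and 1043.4, 2136.9, 752, 996 and 937.6 on low phosphate diet (1173 ± 550, SD, n = 5). In Hyp mice they were 1195, 1462.6, 1354.2, 938.6 and 1096.5 on control diet (1209 ± 207, SD, n = 5) and 1023.8, 4044.1, 1287.6, 890.8 and 967.8 on low phosphate diet (1643 ± 1351, SD, n = 5). The highest array of all 4 groups was the female 5-day one, and array 8 stood far above the other 4 of its group. The diet difference was 0.13 (95% interval -0.30 to 0.56) in normal and 0.18 (95% interval -0.25 to 0.61) in Hyp mice. The low phosphate array was higher in 3 of 5 array sets of normal mice and in 1 of 5 of Hyp mice, and without arrays 5 to 8 the Hyp difference was -0.13 (95% interval -0.44 to 0.17). The genotype difference was 0.25 (95% interval -0.18 to 0.68) on control and 0.30 (95% interval -0.12 to 0.73) on low phosphate diet.

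The main Mep1b probe set gave 1806.7, 1786.3, 1986.2, 1584.5 and 2617.2 in normal mice on control diet (1956 ± 396, SD, n = 5) and 1495.7, 1049.8, 2085.8, 1351.3 and 1542.2 on low phosphate diet (1505 ± 377.4, SD, n = 5). The groups overlapped, with lower values on low phosphate in 4 of 5 array sets. The difference was -0.38 ± 0.17 (SE; 95% interval -0.75 to -0.02; unadjusted p = 0.04, limma adjusted p = 0.551). Hyp mice had 1439.5, 1684.6, 2513, 1994 and 1176.2 on control diet (1761 ± 517.4, SD, n = 5) and 1919, 1032.5, 2333.7, 1862.8 and 1394 on low phosphate diet (1708 ± 503.7, SD, n = 5), a diet difference of -0.05 (95% interval -0.41 to 0.31). The genotype difference was -0.17 (95% interval -0.54 to 0.19) on control and 0.16 (95% interval -0.20 to 0.52) on low phosphate diet. In 3 of these 4 comparisons the alpha and beta subunits differed with opposite signs, and neither was called.

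The second Mep1b probe set was dim and disagreed with the main one. In normal mice it gave 48.5, 94, 125.5, 46.1 and 60.3 on control diet (74.88 ± 34.15, SD, n = 5) and 61.1, 283.6, 137.7, 88.2 and 156.2 on low phosphate diet (145.4 ± 86.1, SD, n = 5). In Hyp mice the intensities were 124.6 ± 54.16 and 94.32 ± 32.85 (SD, n = 5 each). In normal mice it read higher on low phosphate in 5 of 5 array sets, by 0.63 (95% interval 0.10 to 1.16; limma adjusted p = 0.456), where the main probe set read lower. In Hyp mice its diet difference was -0.26 (95% interval -0.79 to 0.27). Neither probe set passed the test, so no direction of Mep1b with diet can be taken from these arrays.

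Dipeptidyl peptidase 4 (Dpp4, also CD26) releases dipeptides after proline or alanine and inactivates incretin hormones. In normal mice its intensities were 267.7, 442.8, 220.3, 337.3 and 156.3 on control diet (284.9 ± 110.3, SD, n = 5) and 274.3, 513.5, 354, 294.8 and 271.7 on low phosphate diet (341.7 ± 101.6, SD, n = 5). In Hyp mice they were 225.7, 497.6, 237.6, 268.2 and 266.9 on control diet (299.2 ± 112.4, SD, n = 5) and 330.9, 648.9, 352.5, 256.9 and 346.8 on low phosphate diet (387.2 ± 151.2, SD, n = 5). Dpp4 read higher on low phosphate in 4 of 5 array sets of each genotype, but the groups overlapped. The diet difference was 0.27 (95% interval -0.02 to 0.55; limma adjusted p = 0.629) in normal mice and 0.33 (95% interval 0.04 to 0.61; adjusted p = 0.998) in Hyp mice. Genotype differences were smaller, at 0.08 (95% interval -0.21 to 0.37) on control and 0.14 (95% interval -0.15 to 0.43) on low phosphate diet.

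Averaging the diet difference over both genotypes uses all 20 arrays. The 2 genes with the smallest p were then Anpep, at -0.27 ± 0.085 (SE; unadjusted p = 0.0054, limma adjusted p = 0.243), and Dpp4, at 0.30 ± 0.10 (SE; unadjusted p = 0.007, adjusted p = 0.272). These aminopeptidase and dipeptidyl peptidase readings pointed in opposite directions, and none of the 5 genes was called (background 0.472%; 9.75% at an unadjusted p under 0.05). Averaged over diets, the Hyp genotype gave -0.17 for Enpep (adjusted p = 0.231), -0.21 for Anpep (adjusted p = 0.274) and 0.28 for Mep1a (adjusted p = 0.375), again with 0 of 5 called (background 1.28%; 15% unadjusted). No gene passed the test of a genotype by diet interaction either (background 0.046%; 3.23% unadjusted).

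**Figure D2:**
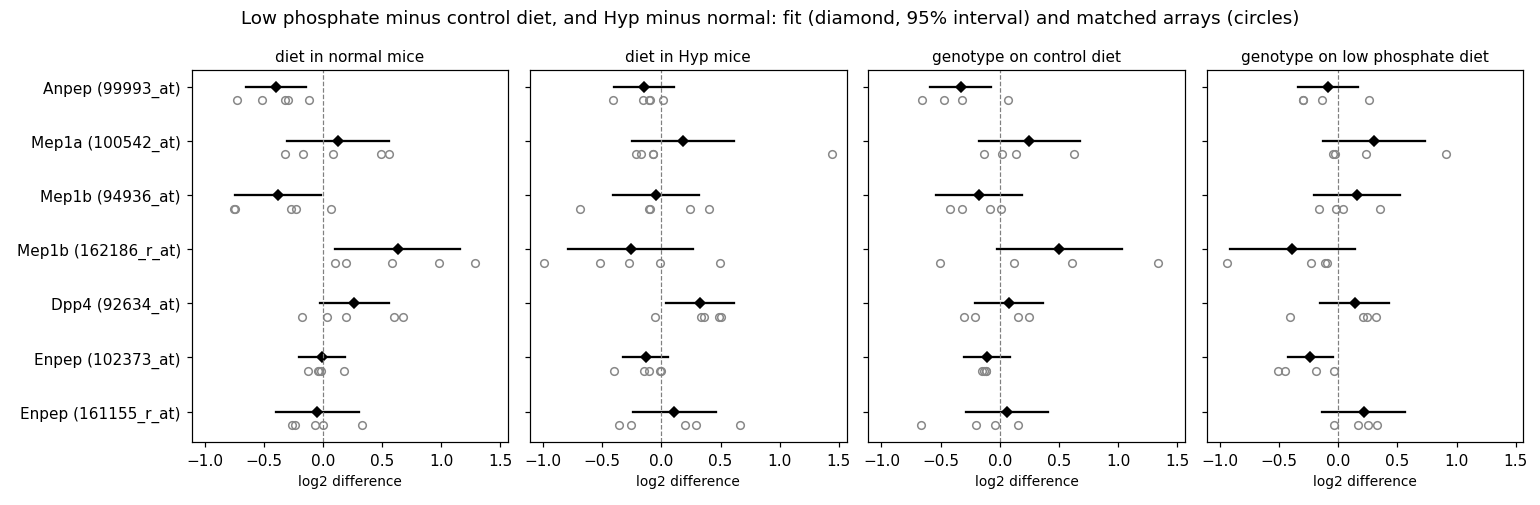
Log2 differences (x axis) of the 7 peptidase probe sets in the diet and genotype comparisons: diamonds are the fit with its 95% interval, and open circles the difference between the arrays of each array set. Anpep lies farthest below 0 for diet in normal mice (-0.40), Dpp4 lies above 0 for diet in both genotypes (0.27 and 0.33), and no point was called.

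Days on the diet were 3 or 5, so the diet difference could be set against its duration. The change of the diet difference from 3 to 5 days, averaged over genotypes, was -0.24 for Anpep (95% interval -0.60 to 0.12), 0.23 for Mep1a (-0.40 to 0.86), -0.355 for Mep1b (-0.865 to 0.156), 0.20 for Dpp4 (-0.22 to 0.615) and -0.005 for Enpep (-0.29 to 0.28), the brackets being 95% intervals. All 5 had an adjusted p of 1 in limma, and no probe set on the array was called for it (background 0%; 3.35% at an unadjusted p under 0.05). In normal mice Anpep differed with diet by -0.22 at 3 days (adjusted p = 0.578) and by -0.51 at 5 days (adjusted p = 0.921), each fitted on the arrays of that duration alone. The corresponding values of the main Mep1b probe set were -0.08 and -0.59. Neither pair shows that the effect grows with time, since the test of the difference was missed. The limma products of genotype with days, diet with sex and genotype with sex also called 0 probe sets (5.45%, 3.47% and 6.42% at an unadjusted p under 0.05), the nearest peptidase value being Mep1a for diet by sex, 0.71 (unadjusted p = 0.011, adjusted p = 0.999).

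Sex and days were compared over all diets and genotypes. Over all probe sets 16.6% were called between females and males and 40.9% between 5 and 3 days. Of the 5 genes, 3 were called for sex: Dpp4 read higher in females by 0.54 ± 0.10 (SE; limma adjusted p = 0.00219), Mep1a higher by 0.49 ± 0.15 (adjusted p = 0.0341), and Mep1b lower by -0.51 ± 0.13 (adjusted p = 0.0127). Against these 2 higher and 1 lower genes, 7.95% of all probe sets were called higher and 8.67% lower. For days, Mep1a at 0.75 ± 0.15 (adjusted p = 0.0012) and Dpp4 at 0.31 ± 0.10 (adjusted p = 0.0206) were called higher at 5 days, where 20.7% of all probe sets were. With each array left out, Mep1a for sex ran from 0.338 to 0.601 and lost its call without array 6, 8, 12, 13, 14, 16 or 17 (adjusted p up to 0.077), and Dpp4 for days was 0.253 without array 14 (adjusted p = 0.061). The second Enpep probe set was called too, at 0.46 for sex (adjusted p = 0.0165) and 0.71 for days (adjusted p = 0.000459).

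The highest values of Dpp4, Mep1a and the second Enpep probe set lay on arrays 5 to 8. Dpp4 ranged from 442.8 to 648.9 on those 4 arrays and from 156.3 to 354 on the other 16. Mep1a ranged from 1440.3 to 4044.1 against 697.1 to 1354.2, and the second Enpep probe set from 888.7 to 1436.3 against 403.2 to 883.1. These are all the female 5-day arrays, so without them sex was compared at 3 days only and days in males only. Neither is the same comparison as the average over both durations or both sexes. The sex difference was then 0.17 for Dpp4 (limma adjusted p = 0.921), 0.11 for Mep1a (adjusted p = 0.946) and -0.11 for the second Enpep probe set (adjusted p = 0.962). The days difference was -0.06 for Dpp4 (adjusted p = 0.834) and 0.37 for Mep1a (adjusted p = 0.148). Over the whole array 19 probe sets were then called for sex and 26 for days, against 20 for diet averaged over genotypes and 61 for genotype averaged over diets. On the same 4 arrays the fibroblast markers, 6 of 6 measured, summed to 11958 to 14262, against 7106 to 10422 on the others. The fibroblast markers did not move together: for days, Col1a2 (1.13) and Dcn (0.34) were called higher and Col1a1 (-0.41) lower. The collecting duct markers, 3 of 8 measured, summed to 1999 to 3068, against 2991 to 5939. Their part, and that of the actin ratio given above, in the Dpp4, Mep1a and Enpep values was not tested.

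A product of sex and days, added after the values had been seen, was called for Dpp4 at 0.74 ± 0.20 (SE; limma adjusted p = 0.025) and for the second Enpep probe set at 1.14 ± 0.24 (adjusted p = 0.00883); 12.4% of all probe sets were called for it. The Dpp4 call was lost without array 8, 12, 13, 16, 17 or 18 (0.633 to 0.867 with each array left out, adjusted p up to 0.064). At 5 days the female arrays lay wholly above the male ones for Mep1a, Dpp4 and the second Enpep probe set (6.54% of all probe sets did), and no peptidase lay wholly below (6.01%). At 3 days none lay wholly above (3.61%). Female arrays at 5 days also lay wholly above those at 3 days for the same 3 probe sets (18.3% of all probe sets did, and 18% lay wholly below), whereas no peptidase separated 5 from 3 days in males (0.552% did upward and 1.22% downward). The product of sex and days cannot be told apart from an effect of the set of 4 arrays itself.

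Without arrays 5 to 8 sex was compared at 3 days only. At 3 days the females were arrays 15 to 18 and the males arrays 11 to 14, so sex cannot be told apart from array set. There the main Mep1b and Enpep probe sets differed about as much as over both durations. At 3 days Mep1b ranged from 1176 to 1584 in females and from 1863 to 2086 in males, without overlap, as for 3.15% of all probe sets in that direction. This Mep1b difference at 3 days, fitted without arrays 5 to 8, was -0.52 (limma adjusted p = 0.454), so it was not called. Averaged over both durations, with all arrays, it was -0.51. The 5-day ranges, 1032 to 1786 in females and 1440 to 2617 in males, overlapped, and Mep1b was not called at 5 days alone either. The main Enpep probe set also separated at 3 days, with 2493 to 2909 in females and 3015 to 3376 in males; its sex difference was -0.19 over all arrays (adjusted p = 0.0636) and -0.195 without arrays 5 to 8 (adjusted p = 0.682). Enpep passed the threshold with the filter at the median (adjusted p = 0.045), with trend and robust variances (0.04) and with array weights (0.029).

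**Figure D3:**
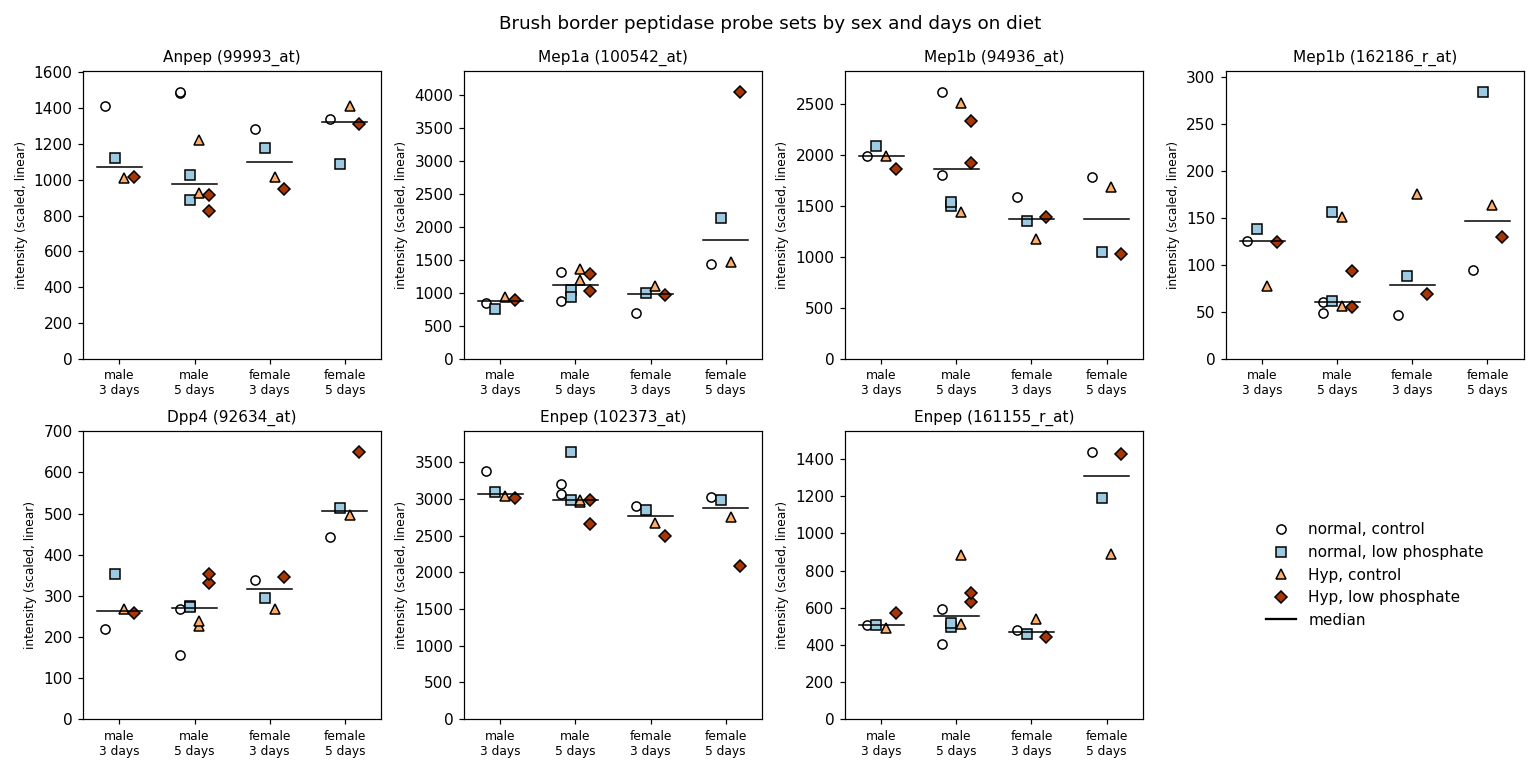
Array intensity (y axis, linear, from 0) of the 7 peptidase probe sets by sex and days on the diet (x axis), 1 point per array, marked by genotype and diet, and a bar at each median. The 4 female 5-day arrays lie above all others for Dpp4 (442.8 to 648.9 against 156.3 to 354) and Mep1a, while Mep1b is lower in females than in males at 3 days.

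Other enzymes and carriers of the same membrane give the setting of these values. Of 16 other membrane peptidases, 5 were tested (Mme, Ace, Dpep1, Folh1 and Ece1), and none was called for diet or genotype. In those comparisons 0.15% to 1.28% of all probe sets were called, so 0 of 5 is near the background. Their median diet difference in normal mice was -0.02, against -0.01 for the 5 peptidase genes and 0.01 for all probe sets. On control diet their median genotype difference was -0.08, against -0.11 for the 5 genes and 0.02 for all probe sets. For sex 1 of the 5 was called, where 16.6% of all probe sets were. It was Ace, angiotensin-converting enzyme, which read lower in females (-0.48, limma adjusted p = 0.00775). For days 1 of the 5 was called, where 40.9% of all probe sets were. It was Dpep1, which splits dipeptides and read lower at 5 days (-0.32, adjusted p = 0.0122).

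Peptides cut at the surface are completed inside the cell, and 0 of 13 intracellular peptidases, 0 of 9 peptide and amino acid carriers and 0 of 8 glutathione cycle genes were called for diet or genotype. With 0.15% to 1.28% of all probe sets called in those comparisons, 0 is near the background for lists of this size. For days, 2 of the 13 intracellular peptidases were called higher (Xpnpep1 and Tpp1) and 7 lower, among them Thop1 (-0.97), Prep (-0.96), Dpp3 (-0.64) and Acy1 (-0.59), and 3 of 9 carriers were called lower (Slc1a1, Slc3a2 and Slc7a8). Over all probe sets 40.9% were called for days, 20.7% upward. The median days difference was -0.46 for the intracellular list, -0.10 for the other membrane peptidases, 0.07 for the 5 genes and 0.01 for all probe sets, and the lists were not tested against each other. Without arrays 5 to 8, which leaves days compared in males only, 26 probe sets in all were called for days.

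Among 13 genes of brush border structure and uptake, 0 were called for genotype on control diet (background 0.253%) and 1 on low phosphate diet (0.357%). Averaged over diets 1 was called (1.28%). Prom1, prominin-1, a protein of microvillar membranes, read higher in Hyp mice on low phosphate diet by 0.74 ± 0.10 (SE; limma adjusted p = 0.00197), with intensities of 2860 ± 603 against 1683 ± 221 in normal mice (SD, 5 arrays each). In that comparison the 5 peptidase genes ran from -0.235 for Enpep to 0.30 for Mep1a, and none was called. Prom1 is also expressed outside the brush border.

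In whole kidney RNA, fewer proximal tubule cells and less RNA per cell cannot be told apart. The 14 proximal tubule markers summed to 92367 to 107214 in normal mice on control diet, 101810 to 115267 on low phosphate, 86137 to 102712 in Hyp mice on control diet and 87421 to 101246 in Hyp mice on low phosphate. In normal mice these sums reached higher on low phosphate, where Anpep read lower. Taken gene by gene, 11 of the 14 markers read higher there and 3 lower. In Hyp mice, averaged over diets, 13 of the 14 read lower than in normal mice and 1 higher. Their median was then -0.09, against 0.02 for all probe sets. Of these, Slc2a2 (-0.34) and Slc4a4 (-0.41) were called lower, where 1.28% of all probe sets were called. Macrophage and lymphocyte markers, 8 of 12 above the filter, summed to 5000 to 5800 in normal and 5787 to 8102 in Hyp mice on control diet, and endothelial markers, 8 of 8 above it, to 6358 to 8760 and 7049 to 8613. The part of these marker lists in the lower Anpep and Enpep readings of Hyp mice was not tested.

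Across the 20 arrays, with the means of the sex and days combinations taken off, the genes whose values ran most like each peptidase were listed by Pearson r as a description only; all share the same arrays and scaling. For Anpep they were Frzb (0.80), Slc6a15 (0.77) and Mrpl21 (0.75), and for Dpp4 Armc10 (0.80), B3galnt1 (0.78) and Figla (0.77). For Mep1b they were Nap1l1 (0.89), Lpl (0.87) and Psmd6 (0.87), which stayed at 0.89, 0.87 and 0.83 over the 16 arrays without arrays 5 to 8. For Mep1a they were Rps24 (0.90), Tfap2a (0.90) and Gstm1 (0.88), and for Enpep Cdk2ap2 (0.80), Necap2 (0.79) and Adh5 (0.78). Without arrays 5 to 8 Tfap2a had 0.63 with Mep1a and Necap2 0.54 with Enpep. No peptidase of the 5 appeared among the 3 nearest genes of another.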

How the data were processed

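The deposited values are array intensities on a linear scale, scaled by the authors to a common trimmed mean, as the values themselves show; no source used here names the software that made them. Group, sex, days and pooling of 3 mice per array were taken from the labels. Of 12422 probe sets other than controls, 10833 are annotated to 1 gene, 396 to several and 1193 to none, and 10817 matched a RefSeq gene. An offset of 38 (the 20th percentile) was added before log2, and the 8695 probe sets with a mean of at least 79.4 (the 30th percentile) were tested. Differences were fitted with limma 3.58.1 in R 4.3.3 (lmFit, eBayes) to all 20 arrays, from terms for group and for each combination of sex and days (13 residual degrees of freedom), two-sided, with Benjamini-Hochberg adjustment in each of 14 comparisons. The scripts were tested on simulated data. All members are named; genes of the related lists are named where called, or as examples of counts, and likeness names the 3 genes with the highest r. The members and lists were chosen with earlier results of these data known. Alternatives covered the offset, quantile normalization, filter, variance model, covariates, array weights and arrays left out. No 2 arrays held identical values. The number of arrays limits the precision.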

Additional observations from a re-analysis of the deposited data

Results flagged for a closer look

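In 7 of the 28 groups of 5 arrays tested with Dixon's ratio, 1 peptidase value stood apart from the other 4 by more than the critical ratio of 0.71. The rate of 1 in 20 behind that ratio holds for 5 arrays of a kind. Each group here mixed sexes and days, with 1 female 5-day array, and the 28 tests shared the same arrays. The 7 can therefore not be compared with that rate. All 7 came from the female 5-day arrays 5 to 8. For Mep1a they were array 6 in normal mice on low phosphate diet (ratio 0.79, intensity 2136.9) and array 8 in Hyp mice on low phosphate diet (ratio 0.874, intensity 4044.1). For Dpp4 they were array 7 in Hyp mice on control diet (ratio 0.844, intensity 497.6) and array 8 in Hyp mice on low phosphate diet (ratio 0.756, intensity 648.9). For the second Enpep probe set they were array 5 (ratio 0.817, intensity 1436.3) and array 6 (ratio 0.918, intensity 1191.8) in normal mice on control and low phosphate diet, and array 8 in Hyp mice on low phosphate diet (ratio 0.76, intensity 1429.5).

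Female minus male rose from 3 to 5 days by 0.743 for Dpp4 (limma adjusted p = 0.025) and by 1.139 for the second Enpep probe set (adjusted p = 0.00883). The product term for this was added after the values had been seen. In the second Enpep probe set females read lower than males at 3 days (480 against 519.8) and higher at 5 days (1237 against 589.1). As given above, the Dpp4 call was lost without array 8, 12, 13, 16, 17 or 18. The female 5-day arrays are those that stood apart in correlation with the rest. Their actin ratios reached higher than elsewhere, but array 5 (1.739) lay within the range of the other arrays (1.218 to 1.983).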

How the results depend on the processing

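Percentages in this paragraph are the share of all probe sets called under the same setting. For diet or genotype, 0 of the 5 peptidase genes passed under the alternatives run, with 1 exception. Array weights called 1 gene for genotype averaged over diets (Anpep, -0.28, limma adjusted p = 0.046), where 2.15% were called against 1.28% in the main fit. Anpep for diet in normal mice ran from -0.48 to -0.35 with each array left out, with adjusted p from 0.25 to 0.68, and was -0.40 when array set was the block (adjusted p = 0.176). For sex, 3 genes were called (16.6%). Enpep joined them with the filter at the median (limma adjusted p = 0.045; 22.8%), with trend and robust variances (0.04; 17.6%) and with array weights (0.029; 23.6%). At 3 days only 0 were called (0.541%), and without arrays 5 to 8 also 0 (0.219%). With each array left out 2 to 3 were, Mep1a being lost without array 6, 8, 12, 13, 14, 16 or 17. Mep1a was also lost without terms for sex and days (2.92%) and without arrays 9, 10, 19 and 20 (23.5%). Mep1b was lost at 5 days only (25.7%) as at 3 days only. For days, 2 were called (40.9%). Without terms for sex and days 1 was (17.8%), in males only 0 (0.069%) and without arrays 5 to 8 also 0 (0.299%). With each array left out 1 to 2 were (Dpp4 lost without array 14). For sex by days, 1 was called (12.4%). With array weights 2 were (18.8%), and with the other probe set of Mep1b and Enpep 2 were (12.4%). With each array left out 0 to 2 were, Dpp4 being lost without array 8, 12, 13, 16, 17 or 18. The second Enpep probe set turned to -0.11 for sex at 3 days only and without arrays 5 to 8, both being comparisons at 3 days. Dpp4 turned to -0.059 for days in males only and without arrays 5 to 8, both being comparisons in males. The cause was not tested. Uncalled differences also changed sign, among them Mep1a for diet in Hyp mice (0.18) at -0.13 without arrays 5 to 8 and -0.12 in males only.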
